A study of Mus musculus with 6 samples.

Results

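The genes described here are 10 acid-base genes of the renal intercalated cell, followed in whole-kidney RNA of aged and young mice. They were chosen by name, as the non-control array probes whose annotated transcript belongs to Atp6v1b1, Atp6v0d2, Atp6v1g3, Foxi1, Slc4a1, Slc4a9, Slc26a4, Rhbg, Rhcg or Car2, which gave 10 of the 20284 genes that have a named probe, on 12 of the 55681 probes. Atp6v0d2 and Slc4a9 had 2 probes each and the other genes 1 each. Kidneys came from male mice of the inbred strain C57BL/6, 3 samples at the age of 20 months and 3 at the age of 2 months, and the labels name no treatment, transgene or mutation at either age. Each sample is an independent RNA preparation, hybridised to a single-colour Agilent array. Whether each preparation is from a mouse of its own is not stated, and p-values therefore cover only the variation among these preparations, part of which may be technical.

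Intercalated cells are a minority cell type of the connecting tubule and collecting duct that set the final acid content of the urine. Type A cells secrete acid through a proton pump, the V-ATPase, on their apical side and return bicarbonate to the blood through the chloride/bicarbonate exchanger AE1, the product of Slc4a1. Type B cells secrete bicarbonate through pendrin, the product of Slc26a4. Carbonic anhydrase II, from Car2, supplies both with protons and bicarbonate from CO2, the Rh glycoproteins move ammonia, and the forkhead transcription factor Foxi1 is needed for the intercalated cell identity in mice. Mutations of the human counterparts of Atp6v1b1, Slc4a1 and Foxi1 cause distal renal tubular acidosis.

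Promoter sequence was used for 5 of the 10 genes, from RefSeq on build GRCm38.p6, and that of the other members is not reported here. The 250 bases before the transcript start are shown 5′ to 3′ in the direction of transcription for the pump subunits Atp6v1b1 (chr6:83742767-83743016, plus strand) and Atp6v1g3 (chr1:138273488-138273737, plus strand) and for Slc26a4 (chr12:31559985-31560234, minus strand), because they belong to the gene set that carries the Foxi1 programme in mice. Capitals mark the forkhead core letters TGTTTA or TGTTTG on the strand shown, or their reverse complements TAAACA and CAAACA.
Atp6v1b1: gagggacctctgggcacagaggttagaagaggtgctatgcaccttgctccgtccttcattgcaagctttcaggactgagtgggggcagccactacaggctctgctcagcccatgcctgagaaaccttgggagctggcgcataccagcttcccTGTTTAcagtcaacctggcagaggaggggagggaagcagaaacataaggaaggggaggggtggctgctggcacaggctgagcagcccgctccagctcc
Atp6v1g3: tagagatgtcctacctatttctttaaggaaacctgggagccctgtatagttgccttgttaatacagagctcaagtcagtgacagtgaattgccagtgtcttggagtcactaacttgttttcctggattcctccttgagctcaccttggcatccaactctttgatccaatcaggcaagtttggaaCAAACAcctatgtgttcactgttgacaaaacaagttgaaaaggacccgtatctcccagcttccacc
Slc26a4: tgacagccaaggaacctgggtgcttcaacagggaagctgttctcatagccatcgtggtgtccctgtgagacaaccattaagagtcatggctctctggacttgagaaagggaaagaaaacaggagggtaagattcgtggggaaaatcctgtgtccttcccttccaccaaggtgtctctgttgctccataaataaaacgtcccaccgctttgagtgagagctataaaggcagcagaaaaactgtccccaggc
TGTTTA lay 98 to 93 bases before the start of Atp6v1b1. CAAACA, which is TGTTTG on the other strand, lay 66 to 61 bases before the start of Atp6v1g3. The windows of Slc26a4, Foxi1 and Rhcg held neither. Of the 32851 mouse promoter windows of the same length, 12% held TGTTTA or its complement, 16% held TGTTTG or its complement and 25.3% held at least 1 of them. TGTTTG ends in TG, with which both motifs begin, so matches can overlap at their ends. A match is a description of the letters and not evidence of binding.

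Across the arrays, 46.3% to 62.9% of probes were well above background at 20 months and 55.3% to 72.9% at 2 months. The 75th percentile of processed signal was 2702 to 4498 at 20 months and 2892 to 4366 at 2 months, and no probe was saturated. All 6 arrays lay on 1 slide, the 20-month samples in its second row and the 2-month samples in its first, and the effects of row and age cannot be told apart. Same-numbered samples shared a slide column. One library stood apart in other genes: the urothelial gene Upk3a had a normalised log2 signal of 1.03 on 2 months replicate 1, against -3.23 and -3.10 on the other 2-month arrays, and values without this array are given below for Rhbg, Slc26a4, the member median and the V-ATPase call. All 12 member probes were well above background on all 6 arrays, so none of the 10 genes was lost to the filter on dim probes and none has only a bound. Values are normalised log2 signals, in which 0 is the 75th percentile of that array's spots, and the number of arrays limits their precision.

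The comparison asked which acid-base genes differ between the kidney of old and young adult mice. One of the 10 genes, Rhbg, passed the adjusted p threshold of 0.05 (limma, Benjamini-Hochberg over 14549 genes), and it was lower at 20 months. Over all genes tested 3.37% passed in either direction with 1.4% lower and 1.98% higher at 20 months. The differences of the 10 genes ran from -0.59 to -0.026 on the log2 scale, all below 0, where 52.8% of all tested genes lay below 0. Their median was -0.23, beside a median of -0.014 over all tested genes. Without adjustment 3 of the 10, Rhbg, Slc4a9 and Atp6v0d2, had a p under 0.05 in the lower direction, and 9.18% of all tested genes did. The 2 ages did not overlap, with 20 months lower, for Rhbg and Slc4a9, and 11.5% of all tested genes were separated in that direction. In whole-kidney RNA, fewer intercalated cells, less RNA per cell and a change in other cells that make these transcripts cannot be told apart.

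**Figure D1:**
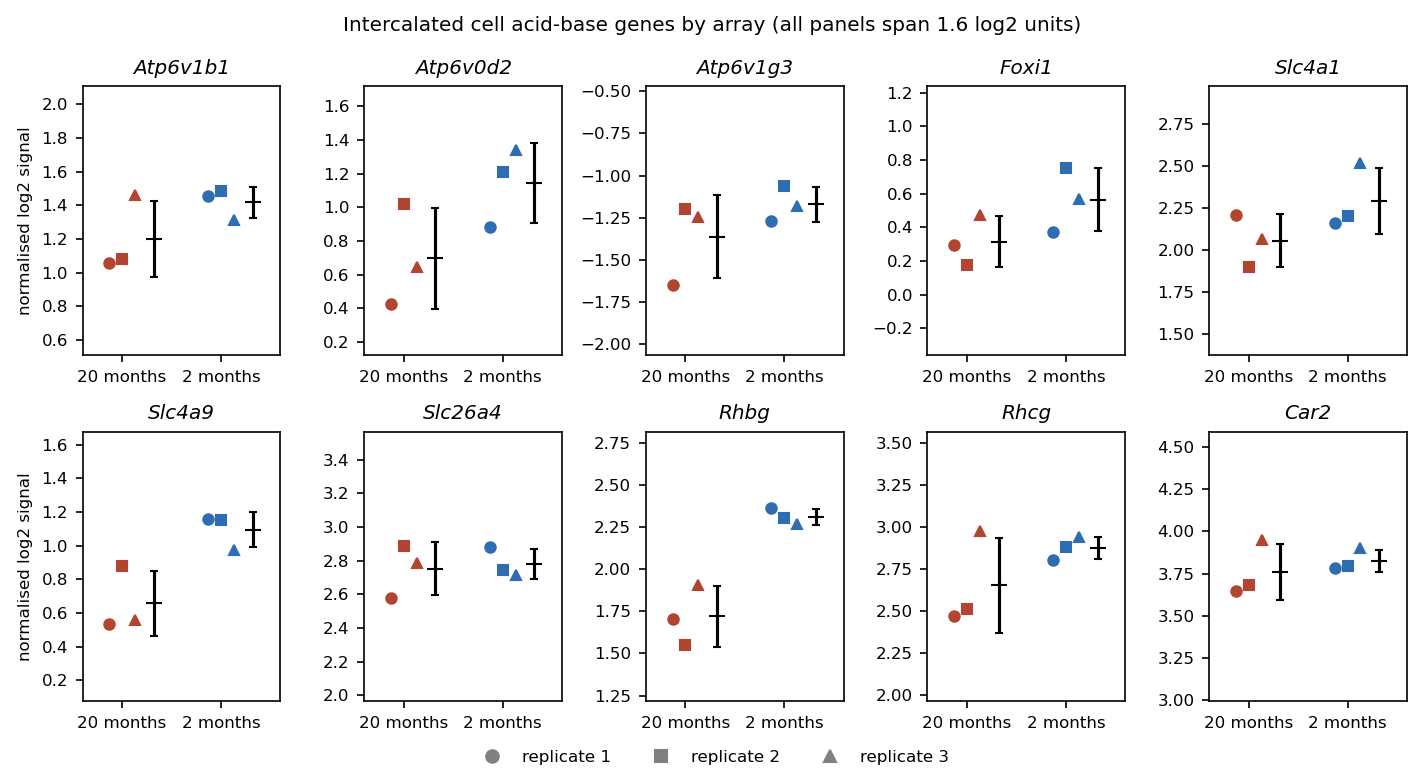
Normalised log2 signal (vertical axis) of the probe that represents each of the 10 genes, on each 20-month array (red, left) and each 2-month array (blue, right), with marker shapes for the replicate number and black bars for the mean and SD of 3 arrays; each panel spans 1.6 log2 units. The 3 Rhbg values at 20 months (1.55 to 1.91) lie below those at 2 months (2.27 to 2.36), while the 2 ages interleave for Slc26a4 and Car2.

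Among the ammonia transporters, Rhbg, which carries ammonia across the basolateral membrane, fell at 20 months. It had normalised log2 signals of 1.71, 1.55 and 1.91 at 20 months, against 2.36, 2.31 and 2.27 at 2 months. The lowest 2-month array lay 0.36 above the highest 20-month array. The processed signals before scaling were 14686, 12300 and 10130 at 20 months, against 22455, 20089 and 13923 at 2 months. The change was -0.59 ± 0.12 (moderated SE, n = 3 arrays per age, limma adjusted p = 0.0444), which puts the 20-month level at 66.4% of the 2-month level with a 95% interval of 54.6% to 80.7%. Within slide columns 1, 2 and 3 the difference was -0.66, -0.76 and -0.36. The adjusted p lay close to the threshold: it was 0.12 with median centring, 0.109 with normexp background correction, 0.175 with no filter on dim probes and 0.0779 in the fit to single probes. With the slide column, which is also the replicate number, as a block it was 0.0926. Leaving out arrays, it was 0.172, 0.136, 0.0996, 0.0576 and 0.132 without 2 months replicates 1, 2 and 3 and 20 months replicates 1 and 2. The size stayed between -0.68 and -0.51 in every alternative.

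**Figure D2:**
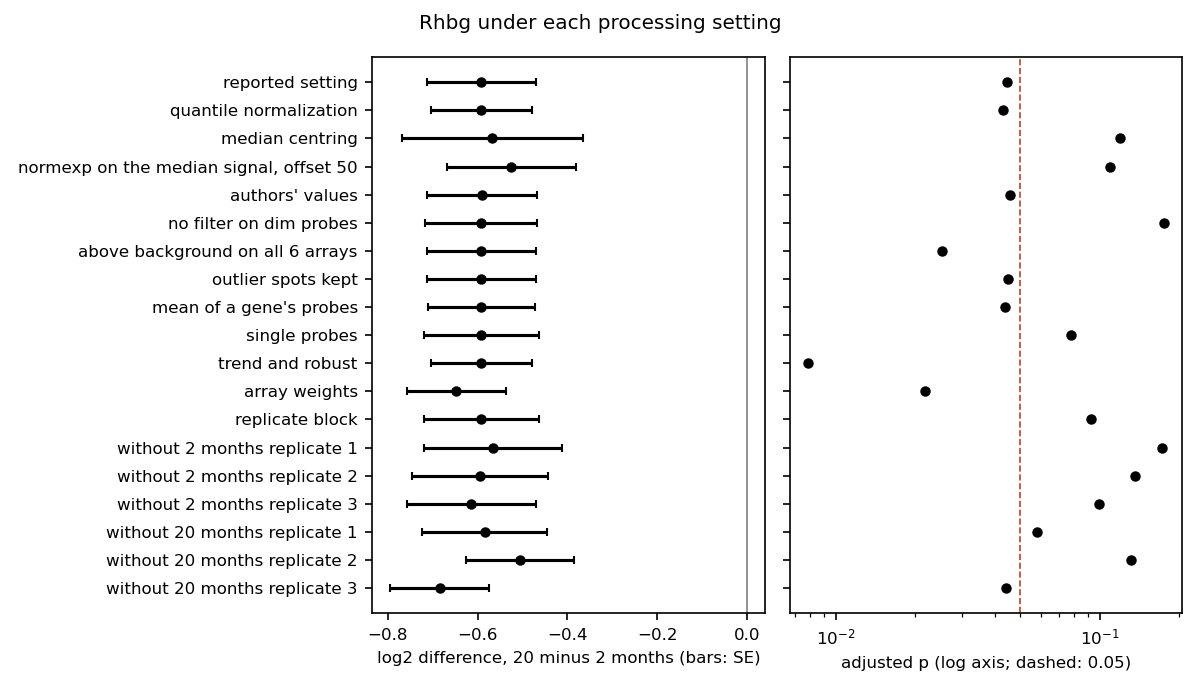
Rhbg under the reported setting and each alternative: the left panel gives the log2 difference (20 months minus 2 months) with its SE and the right panel the adjusted p on a log axis, with the threshold of 0.05 dashed. The difference stays between -0.68 and -0.51 in all alternatives, while the adjusted p ranges from 0.0078 to 0.175.

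Rhcg, found on the apical and basolateral membranes, had log2 signals of 2.47, 2.51 and 2.98 at 20 months, against 2.81, 2.88 and 2.94 at 2 months. Its 20 months replicate 3 was the highest of the 6 arrays and the other 20-month arrays the lowest, so the ages overlapped. The mean was 2.65 ± 0.28 at 20 months and 2.88 ± 0.066 at 2 months (SD, n = 3 each), a difference of -0.22 ± 0.15 with a limma adjusted p of 0.515. The interval of the difference ran from -0.57 to 0.13. It was -0.38 without 20 months replicate 3 (adjusted p = 0.162) and -0.13 without 20 months replicate 1. Whether the 2 ammonia transporters differ from each other in their response to age was not tested.

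The 3 proton pump members did not pass the test. Atp6v1b1 encodes B1, the form of the ATP-binding B subunit that the kidney has mainly in intercalated cells. Its log2 signal was 1.06, 1.08 and 1.46 at 20 months, against 1.46, 1.49 and 1.31 at 2 months. 20 months replicates 1 and 2 lay below every 2-month array and replicate 3 did not. The difference was -0.22 ± 0.14 (adjusted p = 0.473, limma), and within columns 1, 2 and 3 it was -0.40, -0.41 and 0.15. Without 20 months replicate 3 it was -0.35 (adjusted p = 0.221).

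Atp6v0d2 encodes the d2 subunit of the membrane sector, which osteoclasts also use. Its representative probe read 0.43, 1.02 and 0.65 at 20 months, against 0.88, 1.21 and 1.34 at 2 months. The ages overlapped because 20 months replicate 2 exceeded 2 months replicate 1. The difference was -0.45 ± 0.18 with an unadjusted p of 0.0413 and a limma adjusted p of 0.269. The other probe read 0.01, 0.14 and 0.05 at 20 months, against 0.30, 0.51 and 0.48 at 2 months, with no overlap. In the limma fit to single probes its difference was -0.37 ± 0.11 and its adjusted p 0.2, where 2.09% of all probes passed, so both probes pointed the same way and neither passed. With normexp background correction the difference of the representative probe was -0.24.

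Atp6v1g3, the G3 subunit whose expression is largely confined to the kidney and its intercalated cells, read -1.65, -1.20 and -1.25 at 20 months, against -1.27, -1.06 and -1.18 at 2 months. 20 months replicate 1 was the lowest array and the others lay near the 2-month values. The difference was -0.19 ± 0.15 (adjusted p = 0.555, limma), with an interval of -0.53 to 0.14. It was -0.051 without 20 months replicate 1 and -0.060 with normexp background correction.

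Foxi1 itself read 0.30, 0.18 and 0.47 at 20 months, against 0.37, 0.75 and 0.57 at 2 months. The lowest 2-month array lay within the 20-month range, and all 3 slide columns had a lower value at 20 months, by differences of -0.076, -0.58 and -0.098. Of all tested genes, 21.7% were lower at 20 months in every column. The difference was -0.25 ± 0.14 with an adjusted p of 0.406 in the limma fit, and its interval ran from -0.57 to 0.068. Without 2 months replicate 2, its highest array, it was -0.16.

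None of the 3 anion exchangers passed the test. Slc4a1, the basolateral exchanger of type A cells and also the band 3 protein of red blood cells, read 2.21, 1.90 and 2.06 at 20 months, against 2.16, 2.20 and 2.52 at 2 months. 20 months replicate 1 lay above 2 of the 2-month arrays. The difference was -0.24 ± 0.14 (adjusted p = 0.445, limma), and without 2 months replicate 3, its highest array, it was -0.12, and without 20 months replicate 2, its lowest array, -0.16.

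Slc4a9, the exchanger AE4 on the basolateral side of type B cells, had the second lowest p of the 10 genes. Its representative probe read 0.53, 0.88 and 0.56 at 20 months, against 1.16, 1.16 and 0.97 at 2 months. Its other probe read -1.46, -1.11 and -0.99 at 20 months, against -0.72, -0.71 and -0.76 at 2 months. The ages were separated for both probes, by 0.093 and 0.23. The differences were -0.44 ± 0.13 (limma adjusted p = 0.139 over genes) and -0.46 ± 0.15 (adjusted p = 0.207 over single probes), so the level at 20 months was 73.8% and 72.8% of that at 2 months and neither probe passed.

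Slc26a4, the apical exchanger pendrin of type B cells, differed least of all 10 genes. It read 2.58, 2.89 and 2.79 at 20 months, against 2.88, 2.74 and 2.71 at 2 months. The highest and the lowest array were both of 20 months, so the ages overlapped. The difference was -0.026 ± 0.12 (adjusted p = 0.938, limma) and the interval of -0.30 to 0.25 puts the 20-month level between 81.0% and 119% of the 2-month level. Its sign turned without 1 array, to 0.025 without 2 months replicate 1 and 0.060 without 20 months replicate 1. Whether Slc4a9 and Slc26a4, both genes of type B cells, differ in their change with age was not tested.

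Car2, the cytosolic carbonic anhydrase, read 3.65, 3.68 and 3.95 at 20 months, against 3.78, 3.79 and 3.90 at 2 months. 20 months replicate 3 was again the highest of the 6. The difference was -0.067 ± 0.12 (adjusted p = 0.834, limma), with an interval of -0.34 to 0.21, so that the 20-month level lay between 78.9% and 116% of the 2-month level. With each array left out it ran from -0.16, without 20 months replicate 3, to -0.011, without 20 months replicate 1.

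**Figure D3:**
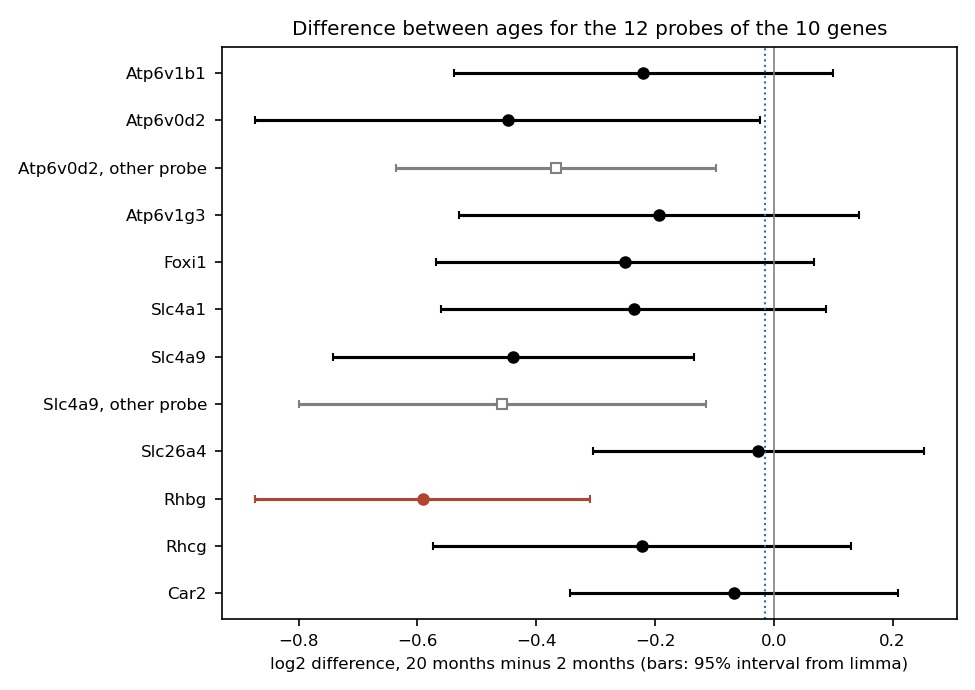
Log2 difference between ages (horizontal axis, 20 months minus 2 months) for each of the 12 probes, with 95% intervals from limma; filled circles are the probes that represent the genes, open grey squares the other probe of a gene, red the gene with an adjusted p under 0.05, and the dotted line the median of -0.014 over all tested genes. All 12 points lie left of 0, and the intervals of Rhbg, of both Slc4a9 probes and of both Atp6v0d2 probes do not reach 0.

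The 3 samples of 20 months were not alike in these genes. The median log2 signal of the 10 genes was 1.38, 1.31 and 1.68 on 20 months replicates 1, 2 and 3, against 1.81, 1.84 and 1.80 at 2 months. The SD was larger at 20 months for 8 of the 10 genes. 20 months replicate 3 was the highest of its age for 5 of the 10, Atp6v1b1, Foxi1, Rhbg, Rhcg and Car2, replicate 2 for 4 and replicate 1 for 1. Replicate 3 lay above the 2-month array of its own slide column for 4 of the 10, and replicates 1 and 2 for 1 each. The same counts over all tested genes, that of the SD included, are not given here. Whether this unevenness is particular to the 10 genes was therefore not tested. Replicate 3 was also the array with the lowest 75th percentile of signal, 2702. Without it the median difference of the 10 genes was -0.34 and Rhbg had a change of -0.68 (adjusted p = 0.0442, limma). Without 20 months replicates 1 and 2 the median was -0.20 and -0.17, and without 2 months replicate 1, the array with the high urothelial signal, it was -0.28 and the change of Rhbg was -0.57 (adjusted p = 0.172).

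Genes with the most similar pattern were taken as those with the smallest root mean square difference over the 6 arrays, each gene centred on its own mean, among 13114 others measured on every array. For Rhbg they included Perm1 and Fam217a, at 0.0522 and 0.0562 log2 units, where the median gene lay at 0.339. The member nearest to Rhbg was Atp6v1b1 at 0.200, at rank 566. Atp6v1b1 and Rhcg were each other's nearest members, at 0.0913, and both had the high value on 20 months replicate 3. The gene nearest to Atp6v0d2 was Hepacam2, at 0.0845, a gene of the list of other intercalated cell genes described next, whose own difference was -0.46 (adjusted p = 0.163, limma).

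Other genes of the pathway were counted in 3 lists from the same limma fit. Of 22 other subunits and accessory proteins of the V-ATPase, 21 were tested, 1 passed and was lower, 0 were higher, and the median difference was -0.021. The member that passed was Atp6v1g2, the G2 subunit best known from neurons, at -0.62 ± 0.13 (adjusted p = 0.0466). It read -5.08, -4.85 and -5.25 at 20 months, where 2 of 3 arrays were above background, against -4.49, -4.49 and -4.33 at 2 months. It therefore entered the test only through the age at which it was higher, and its call was absent in 14 of the 19 alternatives, among them all 6 that left out an array, 2 months replicate 1 included. The next smallest p belonged to Atp6v1c2, the C2 subunit, with -0.51 ± 0.12 (adjusted p = 0.0727), and Atp6v0a2, an a2 subunit of the membrane sector, with -0.36 ± 0.14 (adjusted p = 0.239). Named after their values were seen, for their role as partner and alternative of B1, Atp6v0a4 (the a4 subunit, whose human counterpart is also mutated in distal renal tubular acidosis) differed by 0.057 ± 0.13 and Atp6v1b2 (the widely expressed B2 subunit) by 0.064 ± 0.12.

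Of 25 other genes of intercalated cells, 24 were tested and 0 passed with limma. Among them 9 had an unadjusted p under 0.05, 7 lower and 2 higher, where 17.1% of all tested genes had such a p and 9.18% were lower with one. Of the 24 differences 20 lay below 0, where 52.8% of all tested genes did, and the median was -0.23, the same to 2 decimals as for the 10 members. The smallest p-values were those of Atp4a, the catalytic subunit of a proton-potassium pump, with 0.72 ± 0.19 (adjusted p = 0.0931), Insrr, an alkali-sensing receptor of type B cells, with -0.47 ± 0.13 (adjusted p = 0.114), and Slc4a8, a sodium-driven chloride/bicarbonate exchanger, with -0.52 ± 0.15 (adjusted p = 0.132). Insrr read 0.33, 0.24 and 0.65 at 20 months, against 0.84, 0.90 and 0.89 at 2 months, without overlap. Atp4a read -0.49, -0.10 and 0.29 at 20 months, against -0.81, -0.82 and -0.84 at 2 months, the opposite direction.

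Of 20 genes of proximal tubule bicarbonate transport and ammonia production, 19 were tested, 0 passed with limma, 3 had an unadjusted p under 0.05, 2 of them lower and 1 higher, a share near the 17.1% of all tested genes, and the median was -0.071. Ptk2b, a kinase of the acid response in proximal tubule cells, differed by 0.36 ± 0.11 (adjusted p = 0.143). Slc9a4, a sodium/proton exchanger, differed by -0.91 ± 0.28 (adjusted p = 0.147) and Pck1, the gluconeogenic enzyme that acidosis raises in the proximal tubule, by -0.37 ± 0.15 (adjusted p = 0.281). These lists were chosen with earlier results of these samples known, and no test over a list was made.

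**Figure D4:**
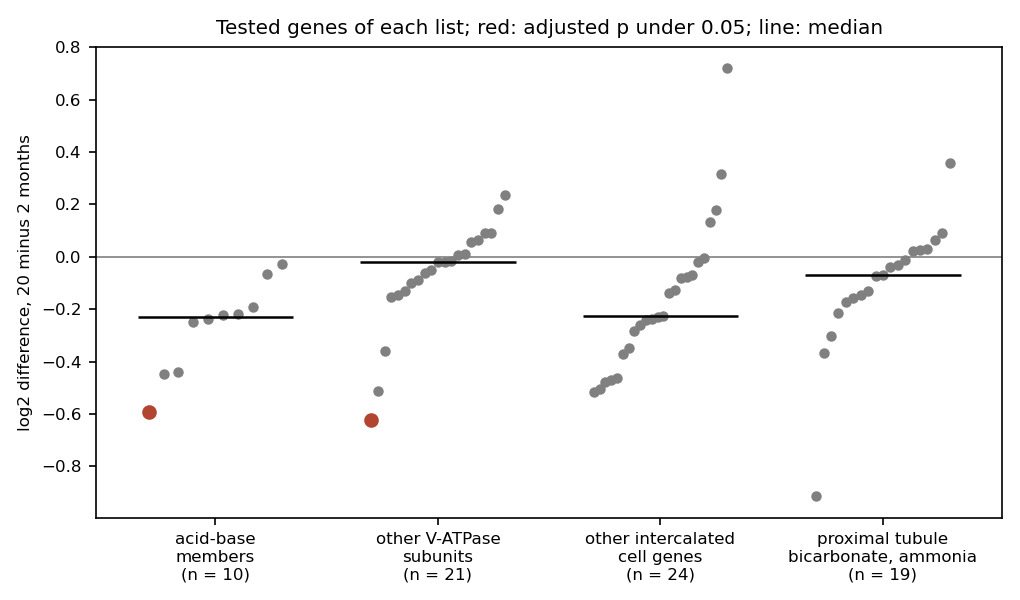
Log2 difference between ages (vertical axis, 20 months minus 2 months) of every tested gene in the acid-base members and in the 3 other lists, each sorted by value; red points passed an adjusted p of 0.05 and black lines are medians. The medians of the 10 members and of the 24 other intercalated cell genes lie at -0.23, those of the 21 V-ATPase genes and the 19 proximal tubule genes at -0.021 and -0.071. Not drawn are the marker lists, with medians of -0.20 for principal cell, -0.21 for thick limb, 0.27 for distal convoluted and -0.014 for proximal tubule markers.

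Markers of the cell type and of other cell types were summed as linear normalised signal per array. Foxi1, Slc4a9, Slc26a4 and Atp6v1g3, which define the intercalated cell here, were above background on all 6 arrays. The sum over the 10 members was 38.4 to 45.7 at 20 months and 46.3 to 48.6 at 2 months. Car2, which is not among the defining markers, made 29.5% to 33.7% of it. Without Car2 the sum was 25.8 to 30.3 at 20 months and 32.5 to 33.7 at 2 months. The defining marker Slc26a4 differed by -0.026. Principal cells, the neighbours of intercalated cells in the collecting duct, had sums of 34.5 to 40.5 at 20 months and 38.6 to 43.9 at 2 months, and 1 of 11 tested markers passed, lower at 20 months. This was the transcription factor Elf5, named after its values were seen, which was above background on 1 of 3 arrays at 20 months and 3 of 3 at 2 months and so entered the test only through the age at which it was higher. Their defining marker Aqp2, the vasopressin-regulated water channel, read 2.72, 2.63 and 3.16 at 20 months, against 3.23, 2.95 and 2.93 at 2 months, with 20 months replicate 3 again the highest of its age. Thick limb markers summed to 51.0 to 56.5 at 20 months and 59.4 to 60.8 at 2 months, with 0 of 7 past the threshold. Distal convoluted tubule markers summed to 15.9 to 19.8 at 20 months and 14.5 to 18.6 at 2 months, with 0 of 5 past the threshold. Proximal tubule markers summed to 111 to 135 at 20 months and 121 to 125 at 2 months, with 0 of 9 past it. Differences below 0 were found for 10 of 11 principal cell and 7 of 7 thick limb markers, with medians of -0.20 and -0.21. Kcnj1, named after its values were seen, is in both of these lists, with a difference of -0.14, and made 29.3% to 33.3% of the principal cell sum. Differences below 0 were found for 2 of 5 distal convoluted and 6 of 9 proximal tubule markers, with medians of 0.27 and -0.014. Of all tested genes, 52.8% lay below 0. A downward shift near that of the 10 members was thus also present in principal cell and thick limb markers.

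Slc4a1 and Car2 are also made by red blood cells. The 17 erythroid markers with a probe summed to 61.9 to 69.9 at 20 months and 74.3 to 75.5 at 2 months, 0 of 12 tested passed, and their median difference was -0.17. Rhag was above background on 0 of 6 arrays and Alas2, the erythroid haem synthesis enzyme, on all 6. Alas2 read -0.25, -0.06 and 0.29 at 20 months, against 0.30, -0.17 and 0.32 at 2 months. The part of red cell RNA in the Slc4a1 and Car2 values was not tested. Osteoclasts, relatives of the macrophage, also express Atp6v0d2. Macrophage and osteoclast markers summed to 62.7 to 74.6 at 20 months and 54.0 to 61.4 at 2 months, with 1 of 9 higher and 0 lower. Itgam made 48.9% to 55.4% of this sum. Without Itgam the sum was 30.41 to 35.24 at 20 months and 25.18 to 30.40 at 2 months, so the ages nearly met. Named after their values were seen, Acp5 and Ctsk, the tested markers best known from osteoclasts, differed by 0.0094 and 0.0075. Dcstamp and Ocstamp were too dim to be tested. Atp6v0d2 differed by -0.45, and the part of macrophages and osteoclasts in its value was not tested. The urothelial sum is carried by 1 marker, Trp63, with 77.1% to 98.4% of it. The other urothelial markers summed to 0.557 to 0.726 at 20 months and to 0.884, 0.936 and 7.08 at 2 months, the last on 2 months replicate 1. Of the 8 urothelial markers tested, 7 had a difference below 0, 1 passed, and the median was -1.27.

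**Figure D5:**
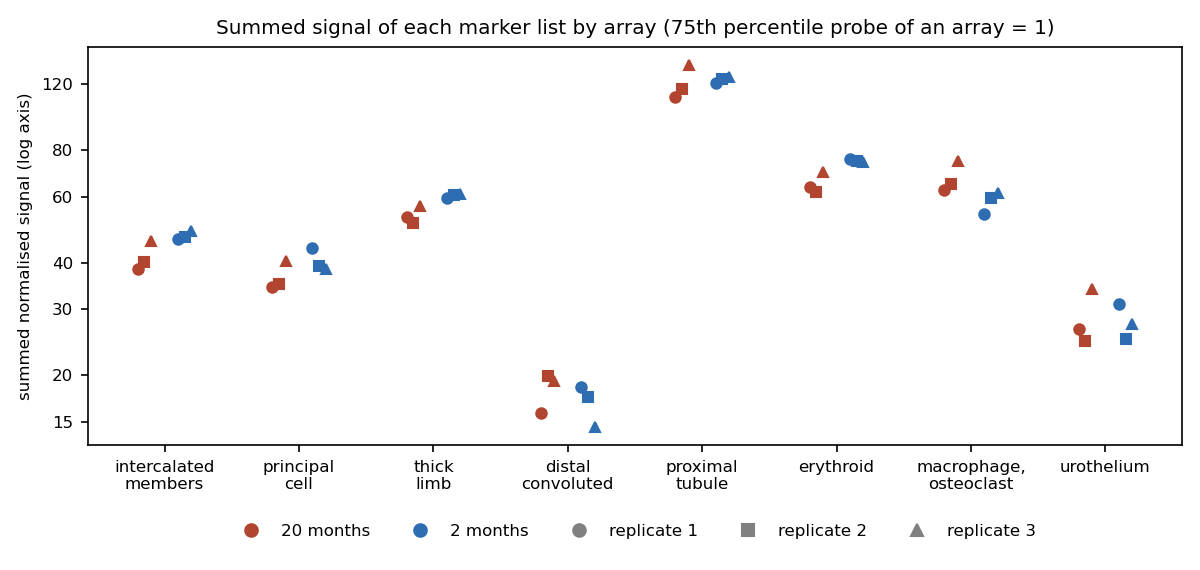
Summed normalised signal (vertical axis, log scale) of each marker list on each array, 20 months in red at the left of each pair and 2 months in blue, with marker shapes for the replicate number. The sums of the intercalated members, the thick limb and the erythroid lists are lower on all 20-month arrays than on any 2-month array, and those of the macrophage and osteoclast list are higher. Without Itgam the lowest 20-month and the highest 2-month sum of the macrophage and osteoclast list were 30.41 and 30.40.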

How the data were processed

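In 6 samples, total RNA of mouse kidney was labelled with Cy3 from random primers and hybridised to Agilent array design 028005, per the labels' protocols and the file headers. Per the file headers, spots were quantified with Agilent Feature Extraction 11.5.1.1, the deposited processed signal intensity is linear, had its background subtracted and spatial trends removed array by array, and the grid was annotated on build mm9. Spot positions within a transcript are not given in the sources used here. The authors' deposited value table is on the log2 scale. Up to a constant of under 0.01 per array, 99.8% of its values lay within 0.01 of log2 processed signal minus the array's 75th percentile over probes, so its scale, centring and direction are known. Its column medians were -4.23 to -3.96 at 20 months and -4.23 to -3.97 at 2 months.

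Outlier spots were left out, log2 signal was averaged per probe, and each array's 75th percentile over non-control spots was subtracted. Gene symbols came from RefSeq accessions without versions (GRCm38.p6, so gene coordinates are not given), for 26762 probes and 20284 genes. A gene was its probe with the highest mean, tested where every array of 1 age or the other was well above background (14549 genes). Ages were compared with limma 3.58.1 in R 4.3.3 (lmFit, eBayes, two-sided, Benjamini-Hochberg adjusted, threshold 0.05), as 20 months minus 2 months. Depth does not apply to arrays. The test was tried on simulated data. Members and lists were chosen with earlier results of these data known. Named genes were all members, list genes past the threshold or with the 3 smallest p-values, defining markers and the 3 nearest patterns. Some genes that this rule names are not reported here. Alternatives were quantile and median scaling, normexp (offset 50, on the median signal, the mean signal not being among the columns used here), the authors' values, 2 other filters, outlier spots kept, the mean of probes, single probes, trend with robust variance, array weights, a replicate block, each array left out and an unadjusted p. Figures used matplotlib 3.10.9.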

Additional observations from a re-analysis of the deposited data

How the results depend on the processing

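The median difference of the 10 genes stayed below 0 in every alternative, and ran from -0.34 to -0.17 with each array left out. The call of Rhbg was lost in 10 of 19 alternatives with its direction kept, so the number of member genes past the threshold was 0 with median centring, normexp, no filter on dim probes, single probes and the replicate block, and 0 to 1 with each array left out. With an unadjusted p it was 3. Rhbg alone of the 10 passed an adjusted p in any alternative. Slc26a4 ran from -0.095 to 0.060 with each array left out, and was above 0 without 2 months replicate 1 (0.025) and without 20 months replicate 1 (0.060). The number of acid-base list genes past the threshold, 1 of 64 tested, was 0 with quantile normalization, normexp, no filter, single probes and the replicate block, 2 with the mean of a gene's probes, 2 with trend and robust variance, 3 with array weights, 0 to 1 with each array left out and 15 with an unadjusted p. The genes differed: Atp6v1g2 was called in 5 of the 19 alternatives, while median centring called Slc9a4, the filter for all 6 arrays Atp6v1c2, trend and robust variance Atp4a and Atp6v1c2, and the fit without 20 months replicate 1 Atp4a. Over all genes the count of 491 was 773 with median centring, 306 with normexp, 16 with no filter, 266 with the replicate block and 2494 with an unadjusted p. It was 922, 141 and 245 without 20 months replicates 1, 2 and 3, and 161, 242 and 238 without 2 months replicates 1, 2 and 3. Deviations of same-numbered samples from their age means had correlations of 0.026, -0.11 and 0.091 for numbers 1, 2 and 3. Their 75th percentiles of signal ran alike, at 4366, 4061 and 2892 for 2 months replicates 1, 2 and 3. For 20 months they were 4498, 4205 and 2702. Same-numbered samples have a number and a slide column in common, and whether they share more was not tested. With the block Rhbg had the same change and an adjusted p of 0.0926. The members were well above background on all 6 arrays, while Atp6v1g2 lay near background. Normexp background correction still moved some members, Atp6v0d2 from -0.45 to -0.24 and Atp6v1g3 from -0.19 to -0.060. It moved Slc4a9 the other way, from -0.44 to -0.57.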
